A study of Mus musculus with 6 samples.

Results

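The genes described here carry, store and convert vitamin A (retinol), or travel with its plasma carrier, in colon and liver of mice with chemical colitis, with or without parsley in the diet. They are 8 genes named in advance by symbol: Rbp2, Rbp4, Ttr, Lrat, Stra6, Dhrs9, Rdh11 and Rarres2. A probe set, the group of short probes by which an Affymetrix array reads a transcript, was used where the platform annotation maps it to one of these symbols alone. That rule found 14 probe sets for 7 of the 8 genes, out of 45101 probe sets and 18194 named genes on the array. Ttr had 4, Rarres2 had 3, Lrat and Rdh11 had 2 each, and Rbp2, Rbp4 and Stra6 had 1 each. Dhrs9, a dehydrogenase of retinol and steroids, was matched by 0 probe sets and was not analysed here.

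The mice were male C57BL/6J (the labels also spell the strain C576B6/J), 7 weeks old, and both organs were read on Affymetrix mouse genome arrays. The control group (CON) ate a basal diet and drank plain water. The colitis group (DSS) ate the same diet and, after 7 days of plain water, drank 1.5% (w/v) dextran sodium sulphate (DSS), a polymer that injures the colonic lining. Mice of the remaining group (DSSPAR) received 2% parsley in their feed from the start and drank the polymer at the same strength. By the treatment protocols the polymer was given for 10 days in DSS and 9 days in DSSPAR, so diet and duration cannot be told apart between these groups. RNA of 7 mice was pooled for each array, with 1 array per group and tissue. A difference between 2 arrays is thus a difference between 2 pools, which nothing repeats, and no p-value can be given.

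Retinol reaches the body as dietary retinyl ester or carotenoid and is bound in the intestinal cell by RBP2, which passes it to LRAT for esterification. Liver keeps the esters mainly in stellate cells and exports retinol into plasma on RBP4, which circulates in a complex with transthyretin, the product of Ttr. Cells take retinol from that complex through receptors such as STRA6, and dehydrogenases and reductases move it between alcohol and aldehyde on the way to retinoic acid, the form that activates nuclear receptors.

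In colon, Ttr was 3.79-fold lower in DSS than in CON, and 2.68-fold higher in DSSPAR than in DSS. Rarres2, which encodes the chemoattractant chemerin, was 2.03-fold higher in DSS and 2.04-fold higher in DSSPAR than in CON. Lrat was above background in CON alone, so its ratios are lower bounds that cannot be ranked beside these. Rbp2, Rbp4 and Rdh11 lay within 1.28-fold of CON in both colitis groups on their brightest probe sets. In liver, Rdh11 was 2.75-fold higher in DSSPAR than in DSS, and Rarres2 was 2.02-fold lower in DSS than in CON, the opposite direction to colon. Liver Rbp4 and Ttr stayed under 2-fold in every comparison.

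The labelled tissues carried their own markers, although neither list was confined to its tissue. All 10 markers of absorptive colonocytes lay above background in the colon CON array. Alb, Apoh, Serpina1c, Fgb and Ahsg of the hepatocyte list lay at or under it in all 3 colon arrays. Another 4 of the 10 hepatocyte markers lay above it in colon CON, with Hnf4a the brightest at 2513. All 10 hepatocyte markers lay above background in each liver array. So did 6 of the 10 absorptive colonocyte markers in liver CON, among them Aqp8 at 6542. Background here is a floor, the median over all probe sets and the 3 arrays of a tissue, 25.1 in colon and 96.6 in liver. Lower values were set to the floor, so a fold against such an array is a lower bound ("at least"), and a gene with both arrays at or under the floor was not measured in that comparison. Median intensities were 22.5 to 27.3 on the colon arrays and 86.5 to 107 on the liver arrays, and levels were compared only within a tissue. Where a gene had 2 probe sets above the floor, the robust SD between their log2 ratios was 0.34 to 0.40 in colon and 0.42 to 0.51 in liver. With arrays centred on their own medians, genes at least 2-fold higher and lower in colon moved from 46 and 146 to 108 and 79 for DSSPAR against DSS, and from 415 and 248 to 890 and 121 for DSSPAR against CON. For DSSPAR against DSS in colon they were 68 and 99 when the centring used above-floor probe sets, and 66 and 92 after quantile normalization. In liver, centring on medians moved them from 616 and 548 to 854 and 349 (DSS against CON), from 347 and 525 to 674 and 332 (DSSPAR against DSS) and from 415 and 439 to 1007 and 188 (DSSPAR against CON). It also moved the median log2 ratio of all genes, from -0.013 to 0.18 and from 0.027 to 0.30 for these 2 colon comparisons, and from -0.018 to 0.12, -0.019 to 0.13 and -0.040 to 0.25 for the 3 liver ones.

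**Figure D1:**
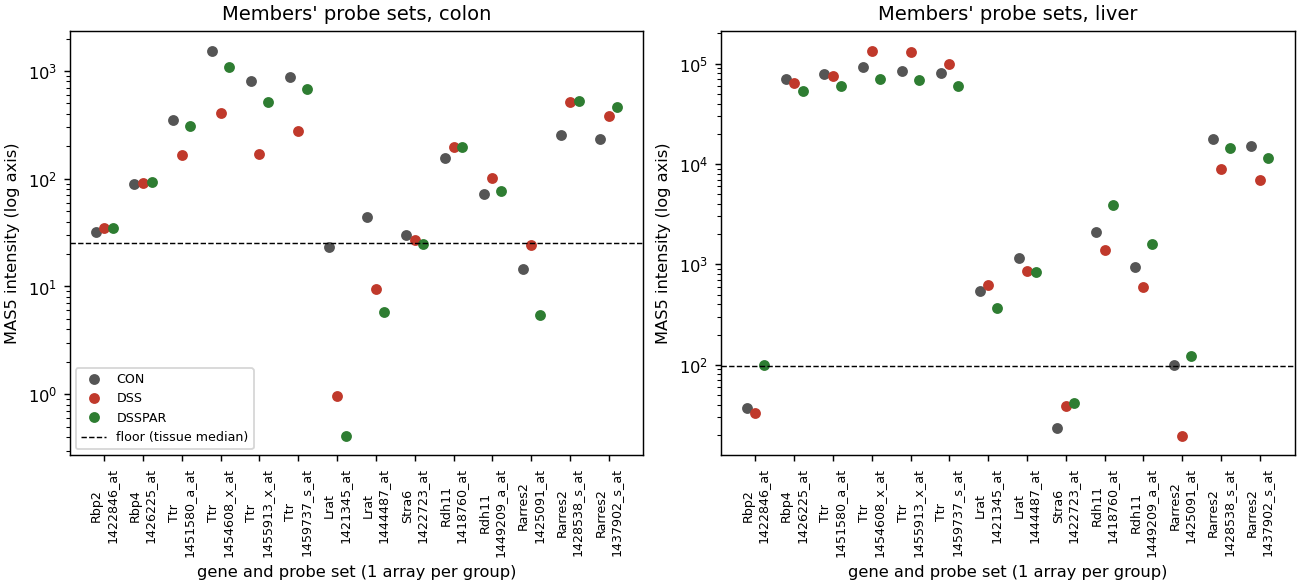
Intensity of each of the 14 probe sets in the 3 colon arrays (left) and the 3 liver arrays (right), on log axes whose scales differ between tissues; each point is 1 array of pooled RNA and the dashed line is the floor. In colon the 4 Ttr probe sets are all lowest in DSS, and in liver both Rdh11 probe sets are highest in DSSPAR.

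Each count of members is set beside the share of all measured genes, and the members are too few for a count to be compared closely with it. For DSS against CON in colon, 7 members were measured. Rarres2 was at least 2-fold higher, against 5.18% of 11952 genes, and Ttr at least 2-fold lower, against 1.97%. The members' median log2 ratio was 0.035, beside 0.042 for all genes. For DSSPAR against DSS in colon, Ttr was at least 2-fold higher among 6 measured members, against 0.392% of 11730 genes, and 0 members were lower, against 1.24%. The median was 0.0034, beside -0.013 for all genes. For DSSPAR against CON in colon, Rarres2 was higher among 7 members, against 3.51% of 11808 genes, and 0 were lower, against 2.10%. Here the median was 0.057, beside 0.027.

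In liver 5 members were measured for DSS against CON. None was at least 2-fold higher, against 4.73% of 13034 genes, and Rarres2 was lower, against 4.20%. The members' median was -0.44, beside -0.018 for all genes. For DSSPAR against DSS, Rdh11 was higher among 6 members, against 2.80% of 12398 genes, and 0 were lower, against 4.23%, with medians of 0.013 for the members and -0.019 for all genes. For DSSPAR against CON, 0 of 6 members passed 2-fold in either direction, against 3.26% of 12721 genes higher and 3.45% lower, with a median of -0.34 beside -0.040. The 3 comparisons of a tissue share arrays: the DSS array that sets the first ratio also sets the second, so they are not independent of each other.

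**Figure D2:**
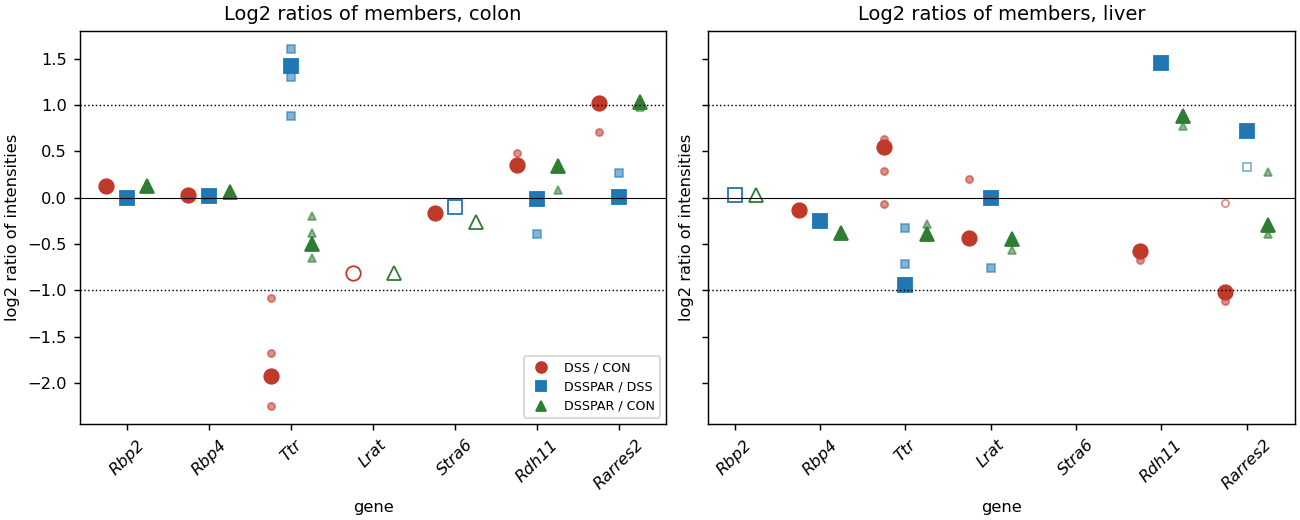
Log2 ratio of intensities for each measured member in colon (left) and liver (right); circles are DSS over CON, squares DSSPAR over DSS and triangles DSSPAR over CON, large symbols the brightest probe set, small ones the others, and open symbols lower bounds. Dotted lines mark 2-fold; in colon Ttr crosses them in opposite directions for DSS over CON and DSSPAR over DSS, and Rarres2 reaches the upper line in colon and the lower line in liver.

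Rbp2, the retinol-binding protein of the absorptive cell of the small intestine, was read in colon at 32.1 in CON, 35.2 in DSS and 35.1 in DSSPAR. The 3 values lay just above the colon floor and within 1.10-fold of each other. In liver Rbp2 was read at 36.8 in CON and 33.0 in DSS, both under the floor, and at 98.9 in DSSPAR, just above it. Raised to the floor, the DSSPAR array was at least 1.02-fold above the others. Without a floor the log2 ratios were 1.58 against DSS and 1.42 against CON, values that rest on intensities in the lower part of the array.

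Rbp4, the plasma carrier of retinol made mainly by hepatocytes, was even across the colon, at 88.7 in CON, 90.9 in DSS and 92.3 in DSSPAR. No pair of colon arrays differed by more than 1.04-fold. Liver Rbp4 was read at 70088 in CON, 64192 in DSS and 53792 in DSSPAR. In deposited intensity it was thus lowest in DSSPAR, by 1.30-fold against CON and 1.19-fold against DSS. These differences are smaller than the spread between probe sets of 1 gene. The probe set ranked 42, 99 and 66 from the top of the 45101 on the CON, DSS and DSSPAR liver arrays. By rank DSS was therefore the lowest array, so the orders by intensity and by rank differ.

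Transthyretin, a carrier of thyroxine and of the RBP4 and retinol complex, is made chiefly by liver and choroid plexus. The brightest of its 4 probe sets in colon read 1547 in CON, 408 in DSS and 1092 in DSSPAR. The DSS array was the low one, and the DSSPAR array lay between it and CON, 1.42-fold under CON. Another probe set read 814, 171 and 520 in the same order, and one more 882, 276 and 680. The dimmest read 352, 166 and 306. All 4 therefore put the groups in 1 order, with DSS lower than CON by 2.12-fold to 4.76-fold and DSSPAR higher than DSS by 1.84-fold to 3.04-fold. Each is of a shared type (identifiers ending in _a_at, _x_at or _s_at), which can bind related transcripts, so the order could not be checked on a probe set specific to 1 transcript.

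RNA of whole colon does not show which cells hold Ttr, and fewer cells of a type cannot be told apart from less RNA per cell. Beside the marker counts here stand the shares of all measured colon genes in DSS against CON, 5.18% at least 2-fold higher and 1.97% lower. Enteroendocrine markers, 11 in all, summed to 3208 in CON, 5884 in DSS and 6908 in DSSPAR. In DSS against CON, 2 of 11 were at least 2-fold higher and 0 lower. Those were Pyy and Insl5, both gut hormone genes, at log2 ratios of 1.41 and 1.55. The list's median log2 ratio was 0.043 for DSS and -0.088 for DSSPAR against CON, with 5 and 6 of 11 below 0, among them Chga, a granule protein gene of these cells, at 199, 158 and 143. Absorptive colonocyte markers summed to 37967, 28817 and 31504, the order of the groups that Ttr had, with 4 of 10 at least 2-fold lower in DSS than in CON. The list's median log2 ratio for DSS against CON was -0.63, and 3 of 10 lay above 0. Those were Car4, Aqp8 and Krt20, each lowest in CON, so the order of the sum did not hold for every marker. Among the lower ones Cyp2c55, a cytochrome P450 gene of the colon, read 4094, 101 and 278. Fabp2, a fatty acid binding protein gene on the small intestinal enterocyte list, read 2092, 297 and 583, and both were lowest in DSS. Fabp2 had the largest ratio of that list, of which 2 of 5 measured were at least 2-fold lower in DSS than in CON. The median of those 5 was -0.27, and Vil1 lay above 0, at 1685, 1898 and 2096. Hepatocyte markers summed to 2794, 2514 and 2876, also lowest in DSS, mostly from Hnf4a, a transcription factor of liver and gut that read 2513 in CON. Albumin (Alb) was under the floor in all 3 arrays. Exocrine pancreas markers, 8 in all, summed to 193, 2612 and 194, so the DSS array that was low in Ttr was high in these. Endocrine pancreas markers summed to 128, 362 and 505, in DSS and DSSPAR mostly from Ppy. That hormone gene read 53.0, 295 and 465, so it was highest in DSSPAR, where the exocrine sum was near that of CON. Iapp was above the floor in CON alone, at 29.2, and Ins2 in DSS alone, at 30.4. Slc2a2, Pdx1 and G6pc2 lay under the floor throughout. The part of any of these cells in the Ttr result was not tested.

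**Figure D3:**
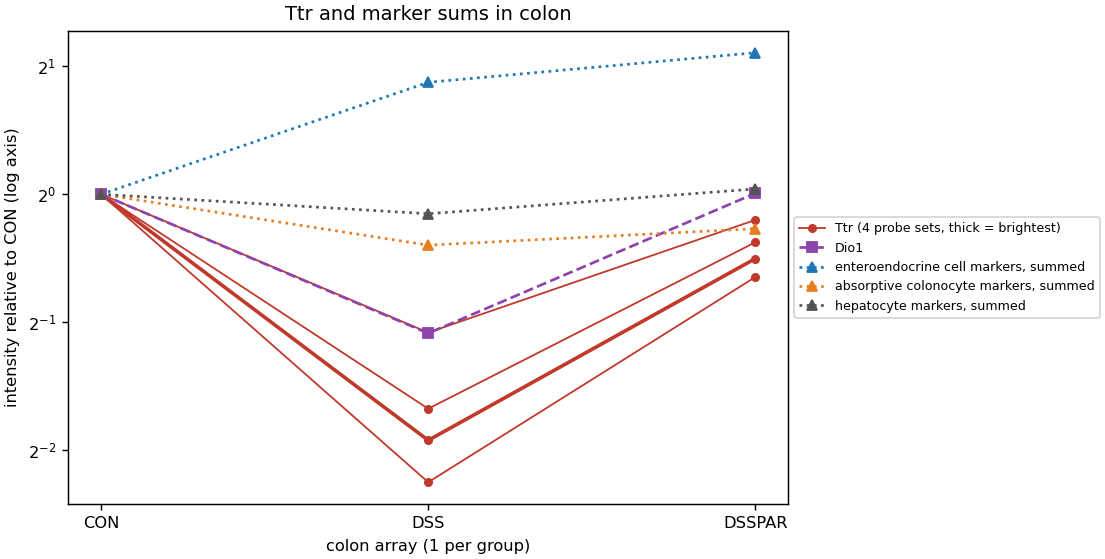
Intensity relative to the CON array (log axis) in the 3 colon arrays for the 4 Ttr probe sets, for Dio1 and for summed markers of 3 cell types; lines join the values of 1 probe set or sum. Ttr and Dio1 are lowest in DSS, as are the absorptive colonocyte and hepatocyte sums by a smaller ratio, while the enteroendocrine sum, whose members' median is near 0, is higher in DSS and DSSPAR than in CON.

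Genes nearest to Ttr in colon were sought over its 3 arrays by the distance of 2 log2 ratios, DSS over CON and DSSPAR over CON, among 10263 other genes above the floor in all 3, predicted gene models left out. Smpx, a small protein of striated muscle, was closest, with intensities of 203, 58.0 and 150 in CON, DSS and DSSPAR (distance 0.13). Ang4, an antimicrobial ribonuclease of Paneth and goblet cells, read 733, 215 and 648 (distance 0.36). Rgcc, a cell cycle regulator, followed at 298, 101 and 199 (distance 0.37). With 3 arrays such likeness describes these pools only.

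In liver the 4 Ttr probe sets did not share 1 picture for DSS against CON. The brightest read 92358 in CON, 135115 in DSS and 70244 in DSSPAR, a log2 ratio of 0.55 for DSS over CON. The one that is dimmest in colon read 78983, 75471 and 60298, a log2 ratio of -0.066. The remaining 2 gave 0.63 and 0.29. In deposited intensity all 4 were lowest in DSSPAR, by 0.32 to 0.94 log2 units against DSS and 0.28 to 0.42 against CON. By rank from the top of each array that order did not hold on all 4. The one dimmest in colon ranked 32, 70 and 37 in CON, DSS and DSSPAR, and the one at 0.63 ranked 22, 8 and 14. The brightest ranked 9, 6 and 13, and the one at 0.29 ranked 28, 37 and 40. Quantile normalization within liver brought the brightest to 0.07 for DSS over CON and -0.14 for DSSPAR over DSS. All 4 ranked among the 70 brightest probe sets of each liver array.

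Transthyretin and RBP4 are classed among the plasma proteins whose synthesis falls in the acute phase of inflammation. Other genes of that class, 9 in all, had 0 members past 2-fold for DSS against CON in liver and a median log2 ratio of 0.33. Serpina6, which encodes the plasma carrier of corticosteroids, was the lowest of the 9 at -0.82. Genes that rise in the acute phase were at least 2-fold higher in 13 of 16 cases, with a median of 2.68, for example the serum amyloid gene Saa1 at 17015 in CON, 132750 in DSS and 74663 in DSSPAR. Hepatocyte markers summed to 600955, 748796 and 521736 in CON, DSS and DSSPAR, an order shared by the brightest Ttr probe set. Their median log2 ratio was 0.21 for DSS and -0.23 for DSSPAR against CON, with 8 of 10 above 0 and 6 of 10 below 0. The order of the sum did not hold for every marker. Cps1 was highest in CON, Tat and Hnf4a were highest in DSSPAR, and Ahsg and Fgb were lowest in CON. Fgb is also on the list of genes that rise in the acute phase. The part of the hepatocyte markers in the Ttr values was not tested.

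Lrat esterifies retinol for storage and marks the stellate cell in liver. Its promoter and those of Rdh11, the retinal reductase gene described next, are shown. Rdh11 passed 2-fold in liver, whereas the colon ratios of Lrat were lower bounds short of 2-fold. Both genes have entries in RefSeq's table of the GRCm38.p6 build. Of the 8 genes, 6 had 11 promoters there, each 250 bases before to 50 after a start. Capitals mark the letters AGGTCA (a half-site of nuclear receptors, retinoic acid receptors included), CACGTG (an E-box) and CCAAT, searched on both strands. The Lrat promoter, chr3:82903925-82904224 on the minus strand, held CCAAT alone, 81 bases before the start:
Lrat: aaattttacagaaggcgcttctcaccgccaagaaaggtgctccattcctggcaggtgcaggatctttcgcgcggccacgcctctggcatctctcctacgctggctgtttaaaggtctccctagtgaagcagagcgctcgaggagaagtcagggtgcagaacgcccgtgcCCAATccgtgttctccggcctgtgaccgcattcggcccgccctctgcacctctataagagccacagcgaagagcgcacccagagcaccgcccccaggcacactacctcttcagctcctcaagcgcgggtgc

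Rdh11 had entries for 2 starts. The upstream one, chr12:79191806-79192105 on the minus strand, held none of the 3 motifs. The downstream one, chr12:79190912-79191211 on the minus strand, held CACGTG 230 and 182 bases before the start, AGGTCA 147 bases before it and CCAAT, read on the other strand, 72 bases before it and again 9 bases after it:
Rdh11 upstream start: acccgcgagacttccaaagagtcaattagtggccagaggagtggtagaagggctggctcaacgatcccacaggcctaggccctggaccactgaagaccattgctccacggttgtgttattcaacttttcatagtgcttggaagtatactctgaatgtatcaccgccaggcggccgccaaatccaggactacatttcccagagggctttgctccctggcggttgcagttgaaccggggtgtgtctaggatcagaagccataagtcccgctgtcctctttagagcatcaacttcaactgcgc
Rdh11 downstream start: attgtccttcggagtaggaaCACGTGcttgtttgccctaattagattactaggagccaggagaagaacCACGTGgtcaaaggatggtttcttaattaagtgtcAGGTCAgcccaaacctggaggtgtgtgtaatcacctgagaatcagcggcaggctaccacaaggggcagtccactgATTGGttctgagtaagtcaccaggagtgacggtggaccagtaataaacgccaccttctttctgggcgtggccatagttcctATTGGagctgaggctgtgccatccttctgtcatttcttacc

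Among all 32851 promoters in the table, 16.3% held AGGTCA, 7.15% CACGTG and 37.4% CCAAT. Among the 11 of the members, 3 held AGGTCA (those of Dhrs9, Rbp2 and the downstream Rdh11 start), 1 held CACGTG and 4 held CCAAT. No marked letters overlapped. A match describes the letters only.

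In colon the brighter Lrat probe set read 44.1 in CON, 9.49 in DSS and 5.80 in DSSPAR. CON was the single array above the floor, and Lrat was at least 1.76-fold higher there than in either colitis array. Without a floor the log2 ratios were -2.22 for DSS and -2.93 for DSSPAR against CON. The dimmer probe set lay under the floor in all 3 arrays but was also highest in CON, at 23.3 against 0.955 in DSS and 0.408 in DSSPAR. In liver the brighter probe set read 1151, 850 and 846 in CON, DSS and DSSPAR, and the other 538, 617 and 365. They disagreed on DSS, at log2 ratios of -0.44 and 0.20 against CON, while DSSPAR lay 1.36-fold and 1.47-fold under CON.

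Stellate cell markers, read beside Lrat in liver, summed to 22784 in CON, 28707 in DSS and 21788 in DSSPAR. In DSS against CON 0 of 12 passed 2-fold, beside 4.73% of all measured genes higher and 4.20% lower. The list's median log2 ratio for that comparison was -0.16, with 8 of 12 below 0, so the higher sum in DSS does not describe most of the markers. Dcn, the brightest of them, read 9830, 14668 and 11079. Reln, which marks stellate cells in liver, read 2315, 2870 and 2044. For DSSPAR against DSS, 1 of 12 was at least 2-fold lower, beside 4.23% of all measured genes. It was Rgs5, a pericyte gene at a log2 ratio of -1.07. Neither Lrat probe set passed 2-fold in any liver comparison, and no order of the groups held on both.

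Stra6, a membrane receptor that takes retinol from RBP4, lay close to the floor in colon, at 30.1 in CON, 26.8 in DSS and 24.5 in DSSPAR, the last under it. The log2 ratio was -0.17 for DSS against CON. In liver Stra6 lay under the floor in all 3 arrays, at 23.6, 38.7 and 41.5, and was not measured. STRA6 is known from eye and barrier tissues, and hepatocytes of the mouse have little of it.

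Rdh11 encodes a reductase of the endoplasmic reticulum that turns retinaldehyde into retinol with NADPH. In liver its brighter probe set read 2097 in CON, 1407 in DSS and 3862 in DSSPAR. The other read 935, 588 and 1599. On both, DSS was the lowest array and DSSPAR the highest. DSSPAR lay above DSS by 2.75-fold and 2.72-fold on the 2 probe sets and above CON by 1.84-fold and 1.71-fold, and DSS lay under CON by 1.49-fold and 1.59-fold. With arrays centred on their own medians the log2 ratio of DSSPAR over CON moved from 0.88 to 1.19, past 2-fold. In colon the brighter probe set read 155, 198 and 196, highest in the colitis arrays, and the other 72.4, 101 and 76.7. Neither passed 2-fold.

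Genes nearest to Rdh11 in liver, among 9795 above the floor in all 3 arrays, were Slc38a9, a lysosomal amino acid transporter gene, at 244, 165 and 416 in CON, DSS and DSSPAR (distance 0.11), Ufsp2, a protease gene of the UFM1 system, at 1517, 1009 and 2576 (distance 0.12), and the nucleoporin gene Nup98 at 318, 212 and 639 (distance 0.13).

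Rarres2 encodes chemerin, which draws macrophages, dendritic and natural killer cells through the receptor CMKLR1, is made mainly by liver and fat, and takes its name from induction by a synthetic retinoid in human skin. In colon its brightest probe set read 255 in CON, 518 in DSS and 522 in DSSPAR. The next read 233, 381 and 458, and the third lay under the floor in all 3 arrays. Both measured probe sets put each colitis array above CON, by 2.03-fold and 1.63-fold for DSS and by 2.04-fold and 1.97-fold for DSSPAR. The call sits on the 2-fold line: the log2 ratio for DSS was 0.96 after quantile normalization and 0.83 with the mean of the probe sets, and that for DSSPAR 0.97 and 0.20. Genes nearest to it among the 10263 were Itpa, H2-Eb1 and Upp1, at distances of 0.0076 to 0.023, of which H2-Eb1, an MHC class II gene, read 571, 1155 and 1151.

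Other cells moved beside Rarres2 in colon. Macrophage and monocyte markers summed to 2033 in CON, 7444 in DSS and 6761 in DSSPAR, with 10 of 12 at least 2-fold higher in DSS. Adipocyte markers summed to 546, 1452 and 873, with 3 of 5 measured members higher in DSS than in CON and 0 of 3 in DSSPAR. Adipoq, which defines the adipocyte, was 2.92-fold higher in DSS than in CON and 1.12-fold in DSSPAR, while Lep and Cidec lay under the floor throughout. Squamous epithelium markers summed to 280, 441 and 382, with 4 of 7 higher and 1 lower in DSS than in CON. The lower one was Krt14, a basal keratin gene, 3.06-fold lower in DSS and 3.95-fold in DSSPAR. Their part in the Rarres2 values was not tested.

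In liver Rarres2 went the other way. The brightest probe set read 17845 in CON, 8852 in DSS and 14538 in DSSPAR, and the next 15044, 6959 and 11480. The third read 100 in CON, 19.4 in DSS and 122 in DSSPAR, near or under the floor. DSS was the lowest array on all 3. It lay under CON by 2.02-fold and 2.16-fold on the 2 brighter probe sets, and DSSPAR lay over DSS by 1.64-fold and 1.65-fold. The call for DSS against CON also sits on the line, with a log2 ratio of -0.87 for arrays centred on their medians and -0.97 after quantile normalization. Leaving out shared probe sets leaves the dim remaining one, at -0.053. On the mean of the 3 the log2 ratio of DSSPAR over DSS rose from 0.72 to 1.36, past 2-fold. Nearest in pattern among 9795 genes were Etfdh, a gene of mitochondrial fatty acid oxidation, at 7231, 3523 and 5825, Acaca, the acetyl-CoA carboxylase of fatty acid synthesis, at 1428, 698 and 1143, and the noncoding gene Snhg10 at 249, 121 and 205, at distances of 0.031 to 0.033.

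The remaining genes of the retinoid pathway were followed in lists that cover uptake and binding, oxidation and reduction, retinoic acid synthesis and breakdown, and nuclear receptors. Beside every count below stand the shares of all measured genes at least 2-fold higher and lower. For DSS against CON they were 5.18% and 1.97% in colon and 4.73% and 4.20% in liver. For DSSPAR against DSS they were 0.392% and 1.24% in colon and 2.80% and 4.23% in liver. For DSSPAR against CON they were 3.51% and 2.10% in colon and 3.26% and 3.45% in liver. In lists this short, a count of 0 or 1 cannot be told apart from those shares. In colon, 3 of 12 measured retinol and retinal oxidoreductases were at least 2-fold higher in DSS than in CON and 0 were lower. Rdh16, a retinol dehydrogenase gene, read 65.9 in CON, 241 in DSS and 244 in DSSPAR. Rdh9 read 247, 679 and 666 on its 1 probe set, which is of the shared type that can bind related transcripts. Rdh10, which makes retinaldehyde for retinoic acid synthesis, read 227, 520 and 390, and its log2 ratio of 1.20 for DSS was 0.55 without shared probe sets. The first 2 stood as far above CON in DSSPAR as in DSS. Adh1, an alcohol dehydrogenase, was even at 5809, 5583 and 6411. The list's median was 0.015 for DSS against CON and turned to -0.0041 with arrays centred above the floor and -0.014 after quantile normalization.

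Retinoic acid enzymes in colon parted in both directions, with 1 of 4 measured higher and 2 lower in DSS than in CON. Aldh1a1, which oxidises retinaldehyde to retinoic acid, read 977 in CON, 232 in DSS and 280 in DSSPAR, so it was 4.21-fold and 3.49-fold lower than CON. Cyp2s1, a cytochrome P450 whose human form acts on retinoic acid, read 449, 169 and 187. Aldh1a3, a related enzyme to Aldh1a1, read 47.4, 126 and 74.9, and its log2 ratio of 1.41 for DSS fell to 0.28 with the floor at the 75th percentile. Aldh1a1 and Cyp2s1 were low in both colitis arrays and Aldh1a3 was highest in DSS. Cyp26a1 and Cyp26b1, which break down retinoic acid, lay under the floor in all colon arrays.

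Among uptake and binding genes in colon, 1 of 8 measured was lower in DSS than in CON and 2 of 8 in DSSPAR. Stra6l, a receptor for RBP4 in mouse liver and intestine, read 102 in CON, 41.5 in DSS and 46.2 in DSSPAR. Isx, an intestinal repressor of carotenoid uptake and cleavage in mice, read 189, 98.4 and 62.1. CON was the highest array for both. The log2 ratios for DSSPAR against CON, -1.13 for Stra6l and -1.61 for Isx, were -0.85 with arrays centred on their medians and -0.86 with the floor at the 75th percentile, in that order. Of 9 retinoid receptors and partners measured for DSS against CON, 0 passed 2-fold. Nr2f2, an orphan nuclear receptor, was 2.02-fold lower in DSSPAR than in DSS, on the line, with a log2 ratio of -0.82 for arrays centred on their medians and 3 of its 4 measured probe sets on that side.

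For DSSPAR against DSS, the 3 other retinoid lists in colon had 0 of 24 measured members past 2-fold, and Nr2f2 was the 1 receptor that did. Of all 11730 genes measured, 0.392% were higher and 1.24% lower, so a count of 0 in 24 is close to that of the whole array. In the same comparison Ttr was 2.68-fold higher.

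**Figure D4:**
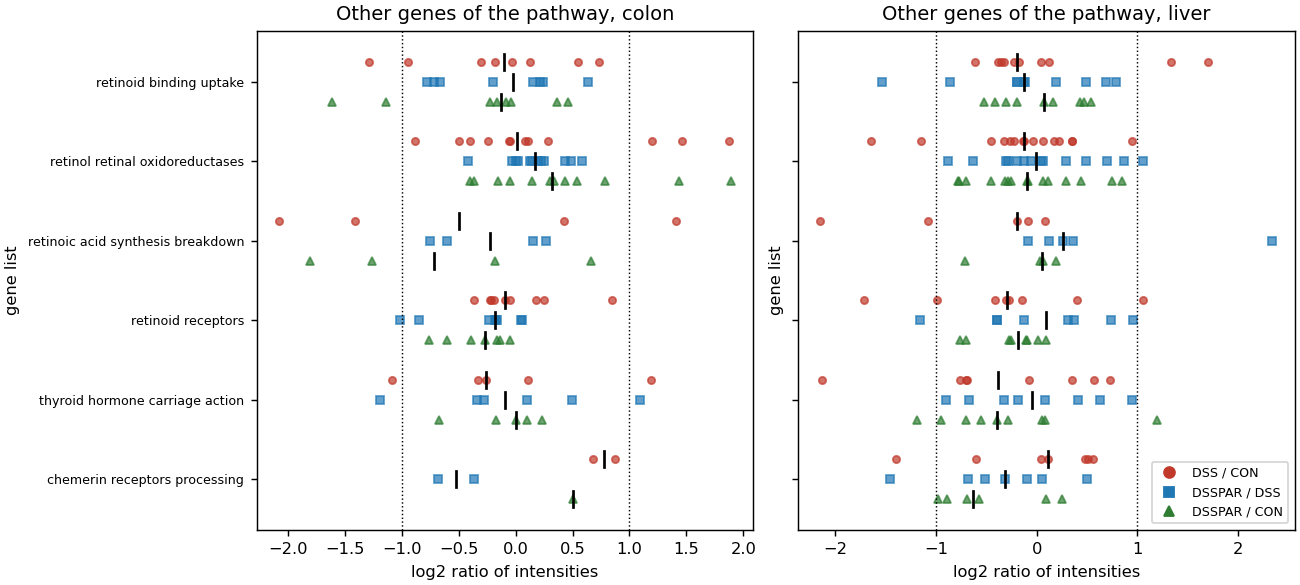
Log2 ratio of intensities for the measured genes of 6 lists in colon (left) and liver (right); circles are DSS over CON, squares DSSPAR over DSS, triangles DSSPAR over CON, black bars medians (several near 0 change sign under other scalings), dotted lines 2-fold. In liver the leftmost circle and the rightmost square among retinoic acid enzymes are both Cyp26a1.

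In liver, Cyp26a1, which degrades retinoic acid and is itself induced by it, read 505 in CON, 114 in DSS and 575 in DSSPAR. DSS was the low array, 4.43-fold under CON and 5.05-fold under DSSPAR. With the floor at the 75th percentile the log2 ratios fell short of 2-fold, at -0.46 and 0.65. Cyp26b1 read 298, 141 and 182, with a log2 ratio of -1.08 for DSS against CON (-0.93 with arrays centred on their medians). These were 2 of 5 measured retinoic acid enzymes lower in DSS, and 0 were higher. Aldh1a1 was even at 35234, 33263 and 36084.

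Retinol and retinal oxidoreductases in liver had 2 of 15 lower in DSS than in CON and 0 higher. Rdh16 read 1454 in CON, 465 in DSS and 846 in DSSPAR, lower in DSS where colon had it higher. Dhrs7, a dehydrogenase of the same superfamily as Dhrs9, read 1627, 731 and 1520 on its brightest probe set, and 1 of its 2 probe sets lay on the other side. Rdh7, Adh1 and Adh5, a retinol dehydrogenase and 2 alcohol dehydrogenase genes, had log2 ratios of -0.04, -0.12 and 0.22 in DSS relative to CON. When DSSPAR was set against DSS, 1 of 14 was higher, Dhrs7 at 2.08-fold, and against CON 0 of 15 passed 2-fold. Rdh11 therefore stood further above DSS in the DSSPAR liver, by 2.75-fold, than any measured gene of this list.

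Among uptake genes in liver, 2 of 10 were higher in DSS than in CON and 0 lower. Lpl, the lipase that also releases retinol from chylomicron esters, read 1799 in CON, 5865 in DSS and 2016 in DSSPAR. Cd36, a fatty acid transporter, read 748, 1882 and 1033, and its log2 ratio of 1.33 was 0.95 on the mean of its probe sets. Both were highest in DSS, and Lpl was 2.91-fold lower in DSSPAR than in DSS. Stra6l read 2474, 1937 and 3341. Receptors in liver had 1 of 8 higher, Ppard at 104, 215 and 71.0, and 1 lower, Rarg at 318, 60.2 and 188, whose 2 probe sets disagreed. Rarb, a retinoic acid receptor gene induced by its own ligand, was lowest in DSS at 294, 147 and 245, a log2 ratio of -0.99.

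Genes of thyroid hormone transport and action were read beside Ttr. In colon Dio1, which activates thyroxine by removing iodine, read 1053 in CON, 496 in DSS and 1059 in DSSPAR, lowest in DSS like Ttr, and was 2.12-fold lower in DSS than in CON and 2.14-fold higher in DSSPAR than in DSS. Dio2, a deiodinase of other tissues, read 7.39, 57.3 and 19.7, at least 2.28-fold higher in DSS, but 0.13 log2 units on the mean of its probe sets. For DSS against CON 1 of 5 measured genes of the list was higher and 1 lower. In liver Dio1 read 12775, 7886 and 10453, also lowest in DSS, within 2-fold. Thrsp, a gene of fatty acid synthesis induced by thyroid hormone, read 55639, 12650 and 24451, at log2 ratios of -2.14 for DSS and -1.19 for DSSPAR against CON. It was the 1 gene of 8 past 2-fold in DSS relative to CON. In DSSPAR relative to CON 1 of 9 was higher, Slc16a10, a transporter of thyroid hormone and aromatic amino acids, at 556, 825 and 1273, whose log2 ratio of 1.20 was 0.72 on the mean of its probe sets, and Thrsp was the 1 lower (-0.88 with arrays centred on their medians). Serpina7, thyroxine-binding globulin, read 6196, 10247 and 6439.

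Receptors and activators of chemerin were mostly dim in colon. Cmklr1 read 9.32 in CON, 40.2 in DSS and 17.2 in DSSPAR, and Ccrl2, a chemerin-binding receptor without signalling, 10.4, 45.8 and 35.5. DSS was the highest array for both. In liver 1 of 7 genes of this list was lower in DSS than in CON. That was Rarres1, another gene induced by retinoids, at 10092, 3826 and 5422, lowest in DSS as Rarres2 was. Elane, the neutrophil elastase, which can cleave prochemerin, read 190, 265 and 31.2. DSSPAR, under the floor, lay at least 2.74-fold below DSS, and no other gene of the 7 passed 2-fold between these arrays.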

How the data were processed

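Intensities were made with MAS5, per the submitters' processing notes, and were deposited by the authors on a linear scale, 1 value per probe set and array. Neither its version nor its scaling target is given in the sources used here. The 6 arrays are 6 groups of 1, and their number limits the precision. All 6 value columns matched a sample and 0 were left unused.

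Of 45101 probe sets, 34958 carried 1 symbol in the platform annotation, 932 several and 9211 were not listed, and the latter 2 kinds stayed unnamed. A gene took its probe set of highest mean log2 intensity in a tissue. With no residual degrees of freedom no test was run. Alternatives tried were no floor, a floor raised to the 75th percentile, 2 centrings, quantile normalization, the mean over probe sets, shared probe sets left out and a 3-fold threshold. The alternatives for pathway genes and list medians were added after seeing the data.

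The members, lists and rules were chosen with earlier results of these data known. Named were the members, up to 4 genes per list and comparison with the largest ratios, the 3 genes nearest to a member past 2-fold, and markers set beside a member. Of the levels, Adh1, Adh5, Rdh7, Aldh1a1, Stra6l and Serpina7 in liver or colon were named as context where they fell outside that rule. The ratio calculation was run on simulated arrays, as a check of the code only. Their noise was smaller than the spread between probe sets. The changed genes lay well above the floor and changed by more than 2-fold. The simulation therefore does not bear on calls near 2-fold or near the floor. Python 3.11.15, NumPy 2.4.6, pandas 2.3.3 and matplotlib 3.10.9 were used.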

Additional observations from a re-analysis of the deposited data

Results flagged for a closer look

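Rarres2 stands out because it passed 2-fold in opposite directions in the 2 tissues for DSS against CON. Its log2 ratio was 1.02 in colon and -1.01 in liver, on the same probe set. The second probe set gave 0.71 and -1.11. The difference between the tissues was not tested, since each holds 1 array per group. Groups of 1 array allow no search for outlying samples.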

How the results depend on the processing

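No paired analysis was possible because each group has 1 array per tissue and the labels give no replicate numbers. All 6 member values past 2-fold kept their sign in the 38 alternatives that gave a value, and 31 stayed past 2-fold. Over all measured members, 221 of 235 alternative values kept their sign. The count of members past 2-fold moved as follows. With quantile normalization it went from 2 to 1 (DSS against CON) and 1 to 0 (DSSPAR against CON) in colon and from 1 to 0 (DSS against CON) in liver. The mean over probe sets gave 1 and 0 for the same colon comparisons and 2 in place of 1 for DSSPAR against DSS in liver. Without shared probe sets, which leaves Ttr with 0 probe sets, it was 0 in all 3 colon comparisons and 0 for DSS against CON in liver. Without a floor it was 3 and 2 for DSS and DSSPAR against CON in colon, and 2 and 1 for DSSPAR against DSS and against CON in liver. With arrays centred on their medians it was 0 for DSS against CON and 1 for DSSPAR against CON in liver. At 3-fold it was 1 for DSS against CON in colon, which is Ttr, and 0 in the other 5 comparisons. Of 230 alternative values of pathway genes past 2-fold, 229 kept their sign. Dhrs7 in liver, DSS against CON, turned from -1.15 to 0.62 on the mean of its probe sets, which lie on both sides. Over all genes, 46 to 619 were higher and 146 to 548 lower across the 6 comparisons. These counts were 1295 to 2076 and 1532 to 2991 without a floor, 20 to 275 and 51 to 230 with a 75th percentile floor, and 1 to 210 and 35 to 90 at 3-fold. Signal near the floor limits Rbp2, Stra6 and Lrat in colon and Rbp2 and Stra6 in liver.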

Other observations

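In liver, Rdh16, Rdh11, Cyp26a1 and Rarres2 each had their lowest value in the DSS array, whereas in colon Rdh16 and Rarres2 were higher in DSS than in CON. The colon Ttr and Dio1 probe sets were lowest in DSS and closer to CON in DSSPAR. Each of these statements describes 3 arrays per tissue and was not tested.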
